A study of Rattus norvegicus with 24 samples.

Results

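Extracellular matrix and perineuronal net genes were followed through the striatum of adult rats that had met immune activation before birth, stress around puberty, both or neither. The set holds 10 genes of the 17303 in the deposited table, picked by gene symbol: the lecticans aggrecan (Acan), brevican (Bcan), neurocan (Ncan) and versican (Vcan), the link protein Hapln1, tenascin-R (Tnr), the basement membrane collagen Col4a1, the proteases Adamts1 and Adamts4, and the protease inhibitor Timp2. Bulk RNA came from the dorsolateral striatum (DLS), a region of habit and motor routine, and the nucleus accumbens (NAc), a region of motivation and reward, of male Sprague-Dawley rats on postnatal day 90. Dams received lipopolysaccharide (LPS), a bacterial outer membrane component that triggers innate immunity, or saline, on days 15 and 16 of gestation, and their sons were later stressed unpredictably or only handled. The 24 libraries form 8 groups of 3: in each region, saline unstressed controls, saline stressed, LPS unstressed and LPS stressed rats. All rats were thus born to injected dams, the controls included, and the labels do not say which libraries share a rat or a litter. A p-value here measures the spread between libraries.

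Lecticans are chondroitin sulfate proteoglycans that bind hyaluronan at their N-terminal end and tenascin-R at their C-terminal end. Link proteins such as Hapln1 lock the hyaluronan bond, and the resulting lattice condenses around some neurons, classically fast-spiking parvalbumin interneurons, as the perineuronal net, which closes periods of high plasticity in the developing brain. Matrix is also laid down loosely between cells and, with collagen IV, in the basement membrane of vessels. ADAMTS proteases cut lecticans, and tissue inhibitors of metalloproteases hold matrix proteases in check.

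The deposited values are digit strings headed as FPKM without a decimal separator, so each is known only up to a power of 10, and levels cannot be compared between genes. Within a gene, relative expression was read on a circle whose full turn is a factor of 10, provided that the libraries kept to a 3.162-fold range (0.5 decades). Of the 10 genes, 7 could be read in both regions: Hapln1, Bcan, Vcan, Col4a1, Adamts1, Adamts4 and Timp2. Their values below are relative log2 expression on a scale whose 0 is the mean of that gene's DLS controls. The reading takes the shortest way round the circle. A gene whose libraries differ more widely is left out or can appear with the opposite sign, so the 7 are the genes with modest spread and not a sample of the 10. Libraries also differed along an axis seen in ribosomal protein genes: their mean relative log2 value, here the ribosomal index, ran from -0.515 to 0.54 across DLS libraries and from -0.239 to 0.511 across NAc libraries. All 12 striatal projection neuron markers were listed above 1 in all 24 libraries. So were 10 of 11 genes on the interneuron list, which includes Gad1 and Gad2.

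The promoters of 4 of these genes are shown because the results below turn on them: Hapln1 and Bcan, with the largest pooled within-group SD of the 7 readable genes in DLS, Col4a1, with the smallest adjusted p of the 7 for stress alone in DLS though it did not pass, and Timp2, which separated the regions. Each covers 250 bases before to 50 after the RefSeq start in build GRCr8, at chr2:22366717-22367016 (plus strand) for Hapln1, chr2:175765265-175765564 (minus strand) for Bcan, chr16:84885347-84885646 (plus strand) for Col4a1 and chr10:104089165-104089464 (minus strand) for Timp2. Capitals mark GGGCGG and CCAAT on either strand.
Hapln1: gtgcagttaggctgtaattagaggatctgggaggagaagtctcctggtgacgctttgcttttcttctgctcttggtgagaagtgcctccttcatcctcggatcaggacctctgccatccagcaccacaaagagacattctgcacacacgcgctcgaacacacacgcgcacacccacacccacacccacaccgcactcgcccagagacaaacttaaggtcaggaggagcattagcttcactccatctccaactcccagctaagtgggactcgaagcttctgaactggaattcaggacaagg
Bcan: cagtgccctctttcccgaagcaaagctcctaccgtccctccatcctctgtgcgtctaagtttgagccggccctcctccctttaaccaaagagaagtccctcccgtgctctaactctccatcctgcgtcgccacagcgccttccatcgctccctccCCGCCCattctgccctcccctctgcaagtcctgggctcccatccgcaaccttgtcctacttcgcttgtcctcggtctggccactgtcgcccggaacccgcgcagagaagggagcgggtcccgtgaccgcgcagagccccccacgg
Col4a1: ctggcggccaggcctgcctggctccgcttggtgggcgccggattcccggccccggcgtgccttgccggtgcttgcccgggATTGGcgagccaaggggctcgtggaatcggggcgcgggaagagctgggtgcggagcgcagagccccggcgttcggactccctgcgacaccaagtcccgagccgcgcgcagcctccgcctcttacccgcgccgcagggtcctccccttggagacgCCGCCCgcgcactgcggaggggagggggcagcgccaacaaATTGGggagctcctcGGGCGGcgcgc
Timp2: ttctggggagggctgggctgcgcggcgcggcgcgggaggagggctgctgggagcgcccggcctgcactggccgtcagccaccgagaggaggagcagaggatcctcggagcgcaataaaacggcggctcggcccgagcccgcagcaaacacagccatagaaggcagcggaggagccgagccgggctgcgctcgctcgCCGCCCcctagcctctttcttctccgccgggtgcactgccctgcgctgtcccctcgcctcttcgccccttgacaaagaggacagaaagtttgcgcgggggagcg

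All 10 genes had a RefSeq promoter entry. The motifs searched, on both strands, were the TATA box TATAAA, the GC box GGGCGG, the CCAAT box, the AP-1 site TGACTCA, the cAMP response element TGACGTCA and the E-box CACGTG. No motif contains another. Hapln1 held none of the 6 and had 53.7% GC with 10 CpG dinucleotides, close to the median of 51.7% GC and 7 CpG over 33469 rat promoters. Bcan (64% GC, 22 CpG) and Timp2 (70.3% GC, 32 CpG) each held 1 GGGCGG, a motif found in 33.1% of promoters. Col4a1 had 75% GC with 38 CpG and held 2 GGGCGG and 2 CCAAT, the second a motif found in 37.5% of promoters. Of the others, Acan was as GC-rich (73%, 28 CpG, 3 GGGCGG) and Tnr lay at the other end, with 38.3% GC, no CpG and 2 CCAAT. Adamts1 and Ncan each held 1 TATAAA, found in 14.2% of promoters, and Adamts4 held none of the 6. These matches describe the letters in these windows only.

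Each lectican gene of the set stood beside a link protein gene in the deposited loci, whose build is not given in the sources used here. On chromosome 2, Hapln1 (18229923 to 18291850) neighboured Vcan (18363889 to 18463115), and Bcan (206762690 to 206775669) neighboured Hapln2. Acan lay beside Hapln3 on chromosome 1 and Ncan beside Hapln4 on chromosome 16. In the pair with both genes readable, Hapln1 was higher in NAc and Vcan lower, as given below.

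Neurocan, an abundant lectican of the young brain, could not be measured. Ncan was listed as 1 in all 24 libraries, as were 2674 genes of the table. Its 2 neighbours at higher coordinates, Hapln4 and Tm6sf2, were also listed as 1 in all 24, while the genes flanking that stretch, Rfxank and Nr2c2ap below and Sugp1 and Mau2 above, were listed as 1 in none. Whether a value of 1 stands for no reads or for an estimate that was not made was not tested.

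Aggrecan, the lectican most tied to mature nets, was listed above 1 in all 24 libraries but spread too widely to be read. Its digits spanned an arc of 0.722 decades in DLS and 0.528 in NAc, both over the limit of 0.5. In DLS controls the deposited digits were 213631, 931239 and 268347, in saline stressed libraries 231805, 485336 and 176816, in LPS unstressed libraries 235257, 336748 and 482346, and in LPS stressed libraries 197486, 405586 and 620369. Over these 12 libraries the digits do not tell which are higher. In NAc the digits were 393613, 343659 and 464007 in controls, 611688, 826353 and 290022 in saline stressed, 548204, 436269 and 977577 in LPS unstressed, and 636478, 70505 and 722397 in LPS stressed libraries.

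Tenascin-R, the oligodendrocyte and interneuron glycoprotein that cross-links lecticans, spanned 0.735 decades in DLS and 0.666 in NAc. Of its DLS digits, 8 ran round the circle from 697486 to 13643: 118582 in a control, 898058, 13643 and 892117 in saline stressed, 104734 and 102723 in LPS unstressed, and 697486 and 134801 in LPS stressed libraries. The other 4 were 251404 and 288128 in controls, 337441 in an LPS unstressed and 506289 in an LPS stressed library. These 4 libraries, neighbours on the circle, had the lowest ribosomal index, between -0.515 and -0.474. The digits alone do not draw this line, because 506289 (decade position 0.70) lay nearer to 697486 (0.84) than to 337441 (0.53). In NAc, the LPS groups lay close together, at 103005, 145192 and 13018 unstressed and 109156, 141315 and 123955 stressed, and saline stressed libraries at 185265, 162763 and 201287. Of the NAc controls, 434344 and 716688 lay apart from these, while 148939 lay among them. A wider arc of 0.7 decades admits both genes in NAc. Cut at the largest gap, Tnr read 1.24 ± 0.35 (SE) log2 above controls in saline stressed libraries (limma adjusted p = 0.724). Acan read 0.79 ± 0.37 above controls in LPS stressed libraries (limma adjusted p = 0.958). These were the largest differences from controls for each gene, and neither passed the threshold of 0.05. Both genes spread over more than 0.5 decades in NAc, so neither the size nor the direction of these differences is secure.

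**Figure D1:**
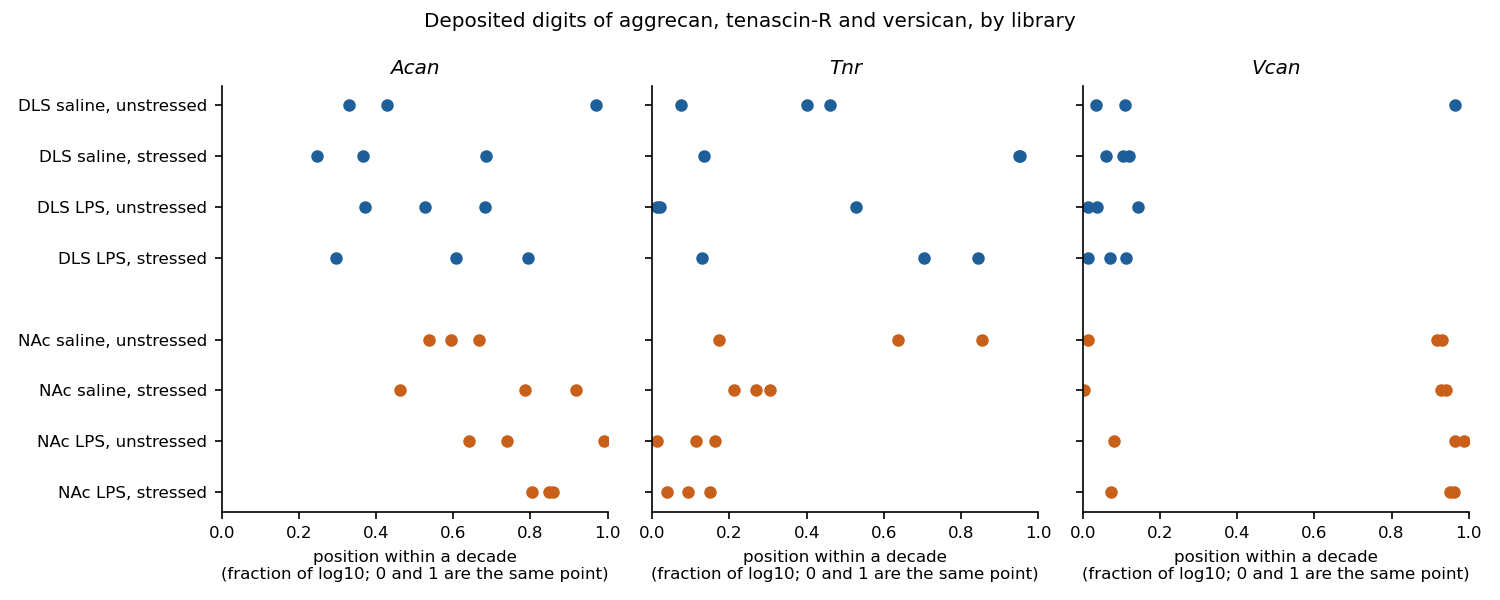
Position of each library's deposited digits within a decade (x axis, fraction of log10, where 0 and 1 are the same point) for Acan, Tnr and Vcan, by group (y axis), with DLS in blue and NAc in orange and a point per library. Vcan sits within 0.226 decades over both regions, while Acan spans 0.743 and Tnr 0.861, wider than the 0.5 that can be read.

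Between regions, 6 of the 7 readable genes differed, with Hapln1, Bcan, Col4a1, Adamts1 and Timp2 higher in NAc and Vcan lower. Over all 7667 genes tested, 66.0% passed the same threshold (26.2% higher, 39.7% lower), so a regional difference is the usual case in these data and the count of 6 is near it. The median difference over all genes was -0.08 log2. In bulk tissue, fewer cells of a type and less RNA per cell cannot be told apart.

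Hapln1 is the link protein that nets are built on. In NAc it was 0.19, 0.39 and 0.89 in controls, 0.86, 0.89 and -0.18 in saline stressed, 0.77, 0.77 and 0.74 in LPS unstressed, and 0.69, 0.95 and 0.69 in LPS stressed libraries. In DLS it was 0.17, -0.44 and 0.28 in controls, -0.33, -0.12 and -0.13 in saline stressed, -0.47, -0.29 and 0.24 in LPS unstressed, and -0.53, -0.52 and 0.41 in LPS stressed libraries. Most NAc libraries stood above every DLS library, but 3 NAc libraries, 2 of them saline unstressed, lay within the DLS range. Averaged over the 4 groups of each region, NAc exceeded DLS by 0.78 ± 0.14 log2 (SE, 1.72-fold, limma adjusted p = 5.98e-05). The difference remained between 0.73 and 0.87 and past the threshold in each of 24 fits that left out 1 library.

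Bcan, a major lectican of the adult brain made by glia as well as neurons, was tight in NAc and wide in DLS. Its NAc values were 0.31, 0.17 and 0.38 in controls, 0.65, 0.48 and 0.23 in saline stressed, 0.26, 0.51 and 0.40 in LPS unstressed, and 0.32, 0.50 and 0.31 in LPS stressed libraries. Its DLS values were 0.39, -0.64 and 0.25 in controls, 0.08, 0.67 and -0.22 in saline stressed, -0.40, -0.33 and 0.41 in LPS unstressed, and -0.76, -0.86 and 0.58 in LPS stressed libraries. The DLS libraries enclosed the whole NAc range, and each DLS group held at least 1 library on either side of 0. NAc exceeded DLS by 0.45 ± 0.16 log2 (SE, 1.36-fold, adjusted p = 0.0158). Leaving out single libraries gave 0.37 to 0.56, past the threshold each time.

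Vcan, the lectican of loose matrix and of oligodendrocyte precursors, went the other way. Over 12 DLS libraries it ran from -0.24 through a median of 0.10 to 0.36, and over 12 NAc libraries from -0.39 through -0.24 to 0.15. The ranges overlapped, with 2 NAc libraries above the DLS median, both the second replicate of an LPS group. The difference between NAc and DLS was -0.29 ± 0.08 log2 (SE, limma adjusted p = 0.00291).

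Col4a1, a chain of the collagen IV network under the vascular endothelium, ran from -0.84 to 0.17 (median -0.30) in DLS and from -0.31 to 0.49 (median 0.11) in NAc. NAc exceeded DLS by 0.39 ± 0.09 log2 (SE, 1.31-fold, adjusted p = 0.000907). Of 5 endothelial and pericyte markers tested, 3 were also higher in NAc and none lower, with a median difference of 0.20; their part in the Col4a1 difference was not tested. In controls alone Col4a1 stood level, at 0.02 ± 0.18 between regions (adjusted p = 0.959).

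Among the proteases, Adamts1, an aggrecanase that cuts several lecticans, was higher in NAc than in DLS by 0.30 ± 0.11 log2 (SE, adjusted p = 0.0228), with a DLS range of -0.89 to 0.28 and an NAc range of -0.32 to 0.31. It is the least secure of the 6, its adjusted p reaching 0.0478 among 29 alternative fits. Adamts4, an aggrecanase that in mouse brain is made by oligodendrocytes, differed by -0.0022 ± 0.13 log2 (adjusted p = 0.989), with a 95% interval of -0.27 to 0.27. Its ranges were nearly the same, -0.84 to 0.20 in DLS and -0.60 to 0.40 in NAc. The interval holds for the shortest way round the circle, and the same digits would fit a level 9.98-fold higher in NAc.

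Timp2, a secreted inhibitor of matrix metalloproteases that also takes part in activating pro-MMP2, separated the regions completely. In NAc it was 1.01, 1.32 and 1.24 in controls, 1.37, 1.34 and 1.16 in saline stressed, 1.28, 1.29 and 1.37 in LPS unstressed, and 1.32, 1.22 and 1.48 in LPS stressed libraries. In DLS it was 0.09, -0.14 and 0.05 in controls, 0.43, 0.47 and -0.01 in saline stressed, 0.28, 0.03 and 0.22 in LPS unstressed, and 0.40, 0.01 and 0.57 in LPS stressed libraries. All 12 NAc libraries stood above all 12 DLS libraries, which was so for 2.20% of the 7667 genes tested (5.78% in either direction). Genes that differ more widely between regions are left out of the 7667, so this share does not cover them. The difference was 1.08 ± 0.07 log2 (SE, 2.12-fold, adjusted p = 1.13e-09). It was 1.19 ± 0.14 in controls alone (adjusted p = 0.000129), where 8.57% of genes passed and the other 6 genes of the set did not. The Timp2 libraries span 0.488 decades, just inside the limit, and the same digits would fit a level 4.72-fold lower in NAc. The deposited table also gives Timp2 and Cep295nl 1 locus (chromosome 10, 106973462 to 107021070), so reads may have been split between them.

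**Figure D2:**
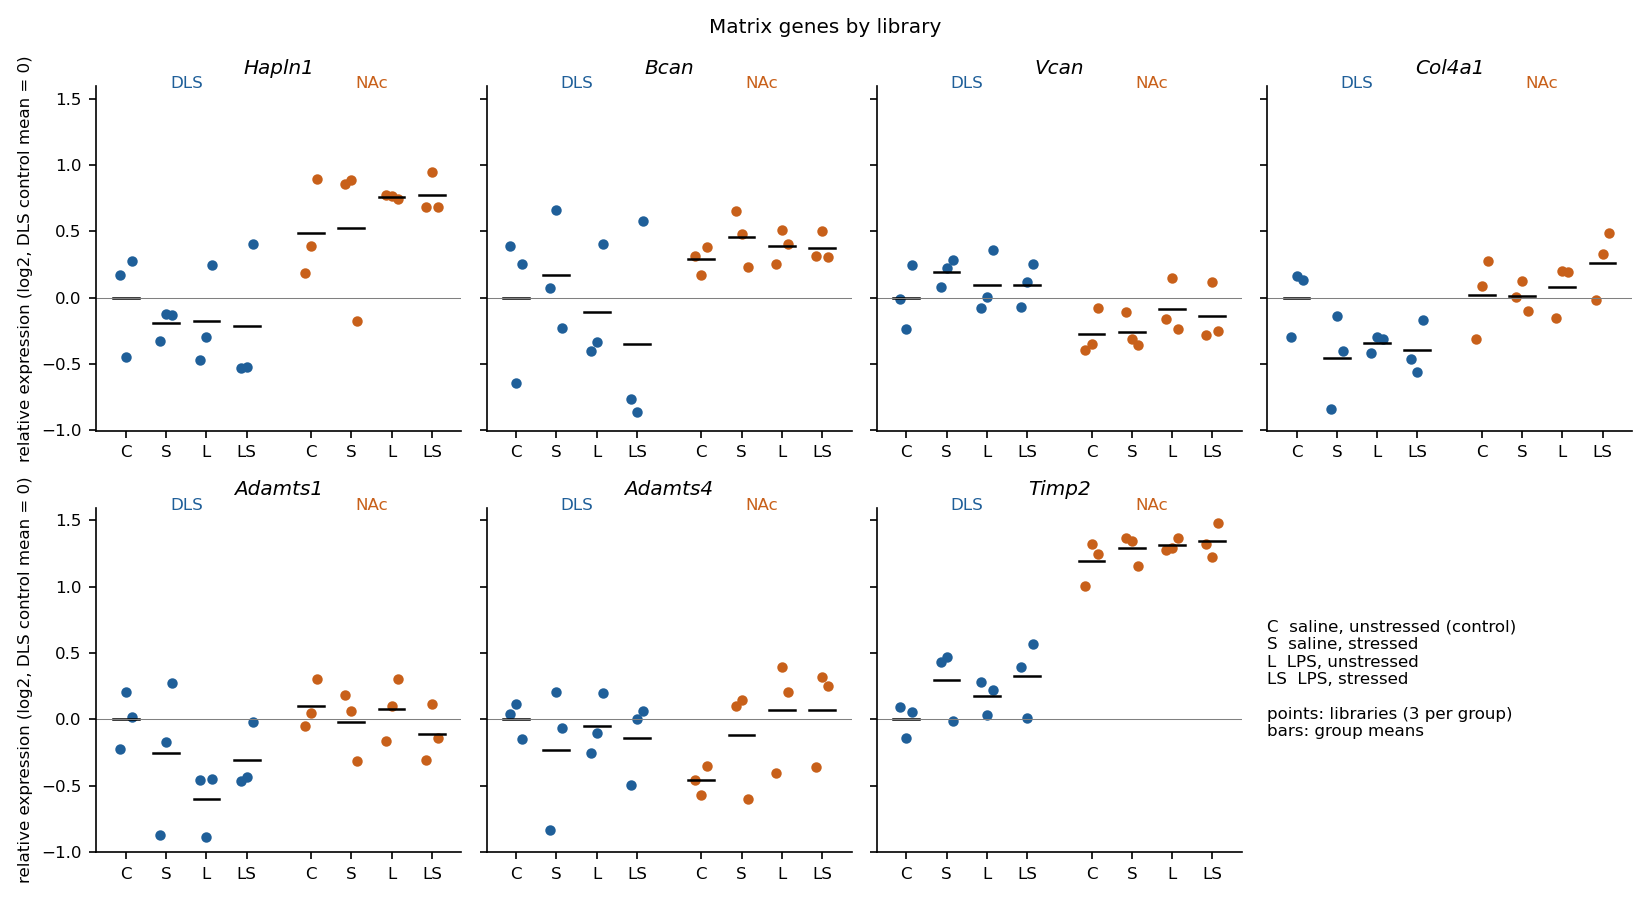
Relative log2 expression (y axis, DLS control mean set to 0) of the 7 readable genes in each of 24 libraries, with DLS in blue, NAc in orange, a point per library and a bar at each group mean; C, S, L and LS stand for saline unstressed, saline stressed, LPS unstressed and LPS stressed. Timp2 separates the regions in every library, Hapln1 in most, and Bcan spreads from -0.86 to 0.67 in DLS against 0.17 to 0.65 in NAc.

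In controls alone the remaining regional differences were 0.49 ± 0.28 for Hapln1 (adjusted p = 0.281), 0.29 ± 0.31 for Bcan (0.592), -0.27 ± 0.15 for Vcan (0.282), 0.10 ± 0.22 for Adamts1 (0.818) and -0.46 ± 0.26 for Adamts4 (0.28). With 3 libraries a region these intervals are wide, that of Hapln1 running from -0.08 to 1.06. Cell type markers differed between the regions at the same time. Of 8 myelinating oligodendrocyte markers tested, all 8 were lower in NAc (median -0.39), led by Mog, a myelin surface protein, at -0.67 ± 0.07. Of 7 astrocyte markers 2 were higher and 5 lower (median -0.37), and of 6 precursor markers 2 were higher and 2 lower. Only 4 of the 11 genes on the interneuron list could be tested. Of these, 3 were higher (Lhx6, Kcnc1 and Gad1), and the remaining gene was not above 0 and did not pass (median 0.34). Gad1 is not particular to interneurons, so this count does not measure interneuron number. The parvalbumin gene Pvalb could not be read in either region. Projection neuron markers were lower in 4 of 5. The part of cell composition in the matrix differences was not tested.

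Exposure to stress, LPS or both changed none of the 7 genes past the threshold in DLS. In each of the 6 DLS comparisons 0 of 7 genes and 0 of 9275 tested genes (0%) passed with limma after Benjamini-Hochberg adjustment. At an unadjusted p under 0.05, 1 of 7 passed for stress alone (Col4a1; 14.6% of all genes), 1 of 7 for LPS alone (Adamts1; 3.25%) and 0 of 7 for LPS plus stress (3.27%), the stress main effect (7.29%), the LPS main effect (1.61%) and the interaction (5.19%). The 3 comparisons with controls share the control libraries. With array weights, which count libraries far from their group less, Hapln1 passed for LPS alone (-0.56, adjusted p = 0.0262), and Bcan (-0.96), Hapln1 (-0.62) and Col4a1 (-0.49) passed for both exposures (adjusted p = 0.0233, 0.0235 and 0.0418), among 2469 and 2507 genes called. Of the 4 DLS libraries with a low ribosomal index, replicate 3 of the LPS unstressed and LPS stressed groups had weights of 0.337 and 0.233, the lowest in DLS, and control replicates 1 and 3 had weights of 2.55 and 3.59.

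Col4a1 was -0.30, 0.17 and 0.13 in DLS controls, -0.84, -0.13 and -0.40 in saline stressed, -0.41, -0.30 and -0.31 in LPS unstressed, and -0.46, -0.56 and -0.17 in LPS stressed libraries. All 9 exposed libraries stood below 2 of the 3 controls, while the remaining control lay among them. The exposed groups share these controls, and the share of all genes with this pattern was not counted. The differences were -0.46 ± 0.19 log2 for stress alone (SE, adjusted p = 0.325), -0.34 ± 0.19 for LPS alone (adjusted p = 0.967) and -0.40 ± 0.19 for both (adjusted p = 0.908) in limma's fit. The LPS unstressed libraries all lay below the controls, by only 0.0001 log2 at the edge (-0.2976 against -0.2975). The low control, replicate 1, also had the lowest mean relative log2 value of 7 endothelial and pericyte markers in DLS, at -0.515 against 0.206 and 0.42 in the other two; these markers ran from -0.059 to 0.46 in saline stressed, -0.318 to 0.176 in LPS unstressed and -0.298 to 0.221 in LPS stressed libraries. Their part in the Col4a1 values was not tested.

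Adamts1 was -0.22, 0.21 and 0.02 in DLS controls and -0.46, -0.89 and -0.45 in LPS unstressed libraries, a difference of -0.60 ± 0.26 log2 (SE, 0.661-fold, limma adjusted p = 0.967). All 3 LPS libraries lay below all 3 controls. Groups that did not overlap were found in this comparison for 10.4% of all genes tested (5.02% of all genes tested with LPS lower), and for 2 of the 7 genes, Adamts1 and Col4a1. With stress the values were -0.87, -0.17 and 0.28 after saline and -0.47, -0.44 and -0.02 after LPS. Both stressed groups overlapped the controls, as they did for each of the 7 genes. Over all genes tested in DLS, groups did not overlap for 28.6% under stress alone and 7.48% under LPS plus stress. The Adamts1 difference for stress alone turned from -0.25 to 0.05 without saline stressed replicate 1. The interaction of LPS and stress was 0.54 ± 0.37 (adjusted p = 0.832).

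Hapln1, Bcan and Adamts4 did not order the DLS groups. The Hapln1 differences from controls were -0.19 ± 0.28 for stress, -0.17 ± 0.28 for LPS and -0.22 ± 0.28 for both (SE, adjusted p = 0.745, 0.967 and 0.908 with limma). Bcan gave 0.17, -0.11 and -0.35, each ± 0.40. Its interval for LPS plus stress ran from -1.22 to 0.53, the widest of the 7 genes. Adamts4 was 0.04, 0.11 and -0.15 in controls and lay between -0.84 and 0.20 in the exposed groups, with differences of -0.23, -0.05 and -0.14, each ± 0.25.

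The 2 genes above the DLS control mean in every exposed group were Vcan and Timp2. Timp2 differed by 0.30 ± 0.18 for stress, 0.18 ± 0.18 for LPS and 0.33 ± 0.18 for both (SE, limma adjusted p = 0.425, 0.967 and 0.908), and each exposed group overlapped the controls. Vcan differed by 0.20, 0.10 and 0.10, each ± 0.17. Its interval for stress alone ran from -0.17 to 0.56.

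In NAc no exposure passed for any of the 7 genes either. In each of the 6 NAc comparisons 0 of 7 genes and 0 of 10616 tested genes (0%) passed with limma, and 0 of 7 passed at an unadjusted p under 0.05, against 1.29% of genes for stress alone, 3.06% for LPS alone, 2.08% for both, 0.895% and 3.55% for the main effects of stress and LPS, and 1.78% for the interaction. No exposed NAc group was separate from the controls for any of the 7, while groups did not overlap for 3.49%, 9.35% and 7.19% of genes under stress, LPS and both.

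Adamts4 came nearest. It was -0.45, -0.57 and -0.35 in NAc controls, 0.10, 0.15 and -0.60 in saline stressed, -0.40, 0.40 and 0.21 in LPS unstressed, and -0.36, 0.32 and 0.25 in LPS stressed libraries. Each exposed group had 2 libraries well above the controls and 1 among or below them. The differences were 0.34 ± 0.26 for stress (SE), 0.52 ± 0.26 for LPS and 0.53 ± 0.26 for both, with limma adjusted p between 0.935 and 1. The mean of 10 myelin markers divided the same libraries: it was -0.065, -0.244 and -0.203 in controls, 0.08, 0.138 and -0.133 in saline stressed, -0.185, 0.325 and 0.129 in LPS unstressed, and -0.225, 0.32 and 0.064 in LPS stressed libraries. The 3 exposed libraries low in Adamts4 were the 3 exposed libraries low in myelin markers. The part of oligodendrocyte content in the Adamts4 values was not tested.

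For the other 6 genes no NAc difference from controls was over 0.285 log2 in size. Hapln1 differed from controls by 0.04 ± 0.26 under stress, 0.27 ± 0.26 under LPS and 0.28 ± 0.26 under both, and its 6 LPS libraries lay between 0.69 and 0.95 while its saline libraries ran from -0.18 to 0.89. The main effect of LPS on Hapln1 was 0.26 ± 0.19 (limma adjusted p = 0.823). Bcan differed by 0.17, 0.10 and 0.09 (each ± 0.13), Vcan by 0.01, 0.19 and 0.14 (each ± 0.15), and Timp2 by 0.10, 0.12 and 0.15 (each ± 0.11). The Timp2 interval under both exposures ran from -0.10 to 0.40. Col4a1 differed by -0.01, 0.06 and 0.25 (each ± 0.18) and Adamts1 by -0.12, -0.02 and -0.21 (each ± 0.17).

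**Figure D3:**
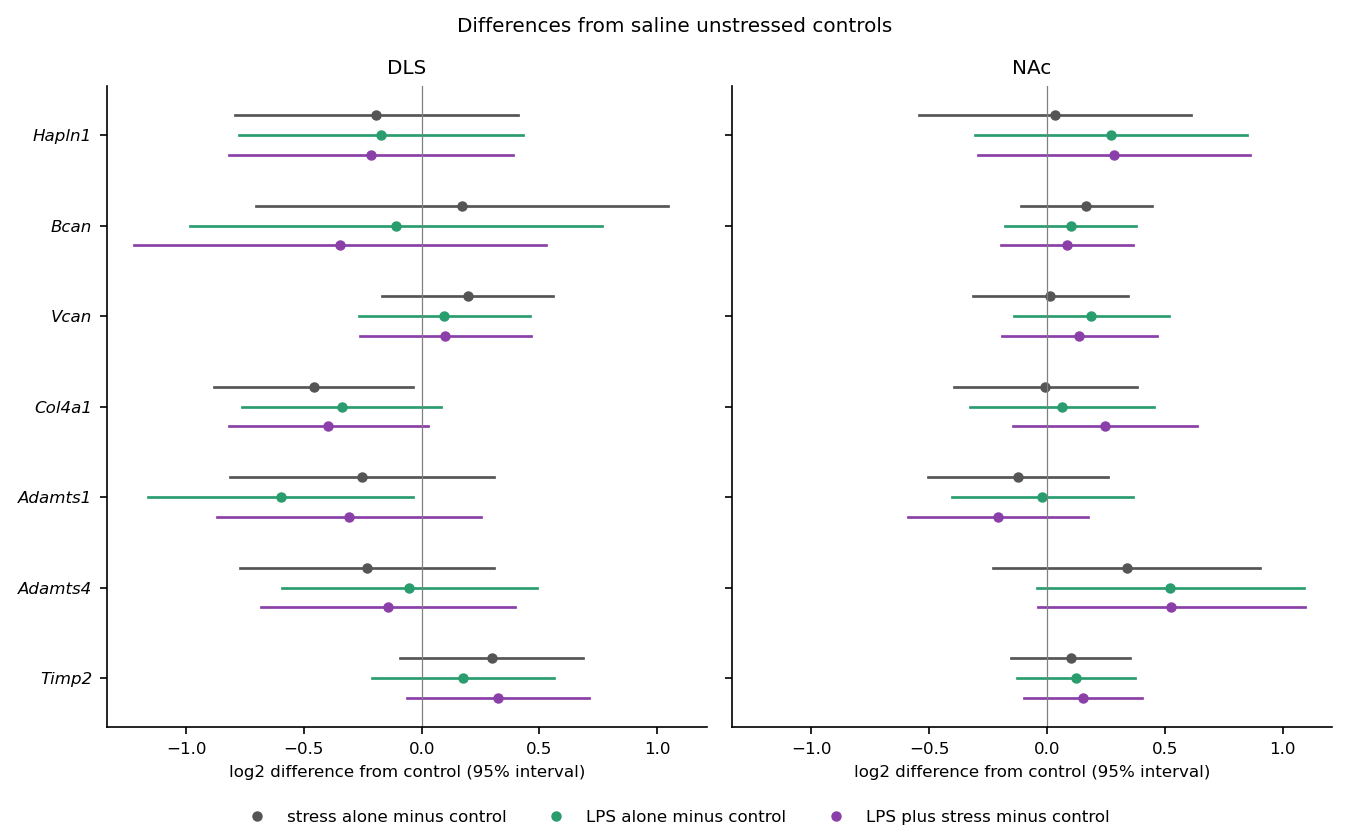
Log2 difference from saline unstressed controls (x axis) with its 95% interval for the 7 readable genes in DLS (left) and NAc (right), for stress alone in grey, LPS alone in green and both in purple. Intervals exclude 0 for Col4a1 under stress alone and Adamts1 under LPS alone, both in DLS, and neither passed after adjustment over all genes.

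Whether exposure acted differently in the 2 regions was tested in the fit of all 24 libraries, where 0 of 7 genes and 0 of 7667 (0%) passed for the stress effect, the LPS effect or their interaction. At an unadjusted p under 0.05 no gene of the 7 passed, against 3.17%, 1.50% and 2.48% of all genes. The nearest was Col4a1, whose stress effect in NAc exceeded that in DLS by 0.35 ± 0.18 log2 (SE, limma adjusted p = 0.934). Its stress main effect was -0.26 ± 0.14 in DLS and 0.09 ± 0.13 in NAc. For LPS the NAc effect exceeded the DLS effect by 0.36 ± 0.28 in Hapln1 and by 0.34 ± 0.26 in Adamts4 (adjusted p = 0.993 for each).

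The genes differed widely in how much libraries of a group varied. Bcan had a pooled within-group SD of 0.585 in DLS, above that of 99.8% of the 7667 genes (median 0.217), and of 0.145 in NAc, above 38% (median 0.17). The 7667 genes are those, of 12001, whose libraries kept within 0.5 decades. Genes of wider spread, Acan and Tnr among them, are thus missing from these rankings. Hapln1 was wide in both regions, above 92.1% of genes in DLS and 96.3% in NAc, and Adamts4 above 85.8% and 95.8%. Timp2 lay at or under the middle, above 49.3% and 26%.

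Hapln1 and Bcan were high in the DLS libraries whose ribosomal index was low. Of the 12 DLS libraries the 4 libraries with an index near -0.5 (controls 1 and 3, LPS unstressed 3 and LPS stressed 3) had Hapln1 at 0.17, 0.28, 0.24 and 0.41, and the other 8, with an index from 0.001 to 0.54, had it between -0.53 and -0.12. The 2 sets do not overlap. Bcan was 0.39, 0.25, 0.41 and 0.58 in those 4 libraries and -0.86 to 0.67 in the other 8, of which only saline stressed replicate 2 exceeded the 4. Those 4 values lay inside the NAc range of Bcan, 0.17 to 0.65. Fits that left out 1 library do not test how far the regional difference of Bcan depends on a pattern held by 4. In NAc the 2 libraries with an index of 0.511 and 0.467 (control 1 and saline stressed 3) had the lowest Hapln1, 0.19 and -0.18, against 0.39 to 0.95 in the other 10. The index was not spread evenly over groups: 2 of 3 DLS controls were among the 4 low libraries and no saline stressed library was. A fit with the index as covariate, added after these values were seen, turned the DLS differences of Hapln1 to 0.24 for stress, 0.13 for LPS and 0.15 for both, and those of Bcan to 0.30 for LPS and 0.16 for both, none of which passed. In the same fit the regional difference in controls passed for Hapln1 (0.89, adjusted p = 0.000216) and Bcan (0.69, adjusted p = 0.0215). The index has its own 0 in each region, so equal values in DLS and NAc need not mean like libraries. It was -0.501, 0.044 and -0.504 in DLS controls and 0.511, -0.076 and -0.118 in NAc controls. The covariate therefore moves this control difference, and 3215 of 7667 genes passed for it against 657 without the covariate. What the index stands for was not tested.

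**Figure D4:**
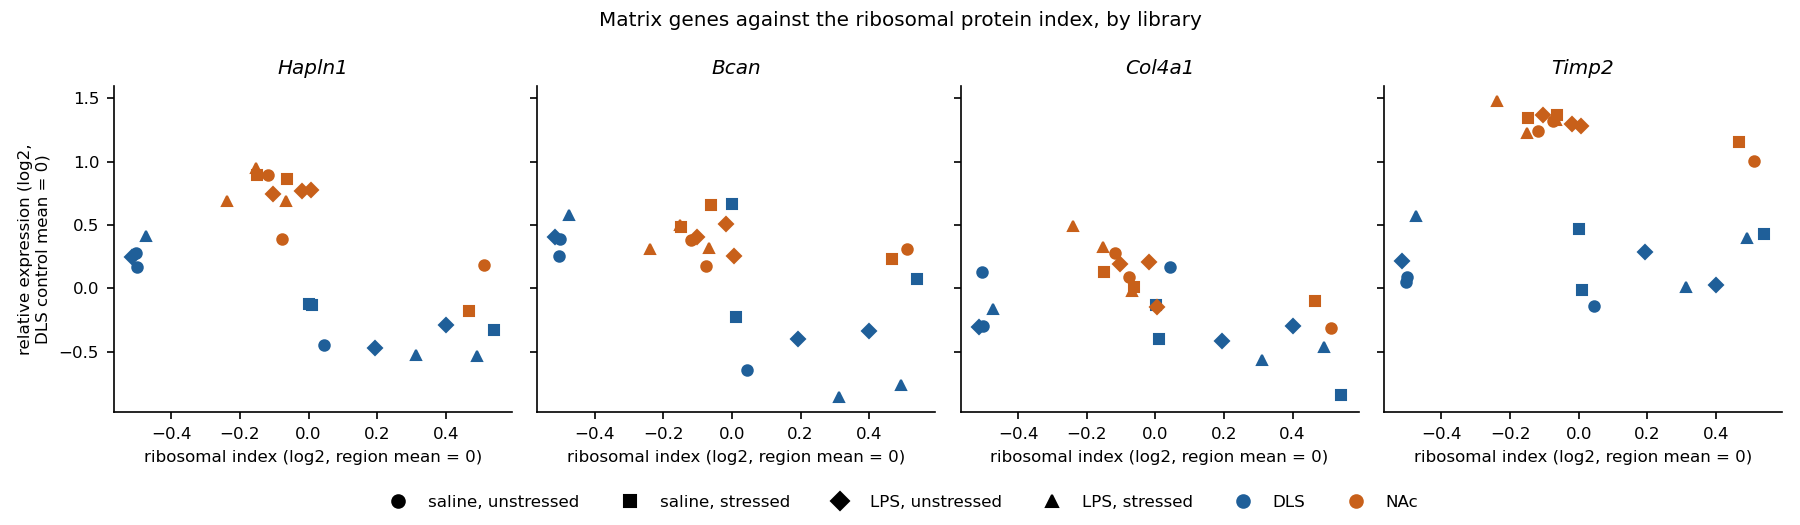
Relative log2 expression (y axis, DLS control mean set to 0) of Hapln1, Bcan, Col4a1 and Timp2 against the ribosomal index (x axis, log2, region mean set to 0), with a point per library, shape for the group and colour for the region. In DLS the 4 libraries near -0.5 hold the 4 highest Hapln1 values, and in NAc the 2 libraries near 0.5 hold the 2 lowest.

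The genes most like each member were taken by Pearson's r of relative log2 values over 24 libraries with the region means removed, among 7667 genes; the points share the library axis just described, so these values only describe. For Adamts4 they were Ugt8 (r = 0.906), the enzyme of galactocerebroside synthesis, Myrf (0.898), the myelin gene regulatory factor, and Ermn (0.883), a myelin cytoskeletal protein. Hapln1 was most like Frs2 (0.931), Supt6h (0.928) and Fasn (0.924), and Bcan most like Ppp1r37 (0.927), Ctnna1 (0.91) and Acsbg1 (0.909). The closest genes to the remaining members were less close: Atp10a to Col4a1 (0.809), Serinc5 to Vcan (0.792), Nrbp2 to Adamts1 (0.785) and the potassium channel Kcna6 to Timp2 (0.785).

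Of 142 other matrix genes on 11 lists, 121 were in the table, and 71 were tested in DLS, 87 in NAc and 57 over both regions. Between regions 15 of 57 were higher in NAc and 7 lower, with a median of 0.07 against -0.08 over all genes. Of all genes tested 26.2% were higher and 39.7% lower (66.0% called in either direction). The share higher was thus near that of all genes, and the share lower was smaller. The strongest were Ptprz1, a receptor phosphatase and chondroitin sulfate proteoglycan that binds tenascin-R, at 0.73 ± 0.08 (SE, adjusted p = 2.37e-07), Csgalnact1, which starts chondroitin chains, at 0.83 ± 0.09 (adjusted p = 4.06e-07), and the cell-surface proteoglycan Sdc4 at -0.71 ± 0.09 (adjusted p = 2.04e-06). Ptprz1 and Csgalnact1 also passed in controls alone, at 0.64 ± 0.15 and 0.73 ± 0.18 (adjusted p = 0.013 and 0.0166). By list, with the 7 genes included, chondroitin sulfate synthesis had 4 higher and 1 lower of 10 (median 0.02), other proteoglycans 5 and 3 of 14 (0.07), basement membrane 2 and 0 of 7 (0.05), interstitial collagens and glycoproteins 1 and 2 of 11 (0.12), and protease inhibitors 2 and 1 of 3 (0.35). Metalloproteases had 1 higher of 5 (median 0.19), hyaluronan genes 1 of 4 (0.07), tenascins and net partners 1 of 3 (0.16) and ADAMTS proteases 1 of 4 (-0.01), with none lower.

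**Figure D5:**
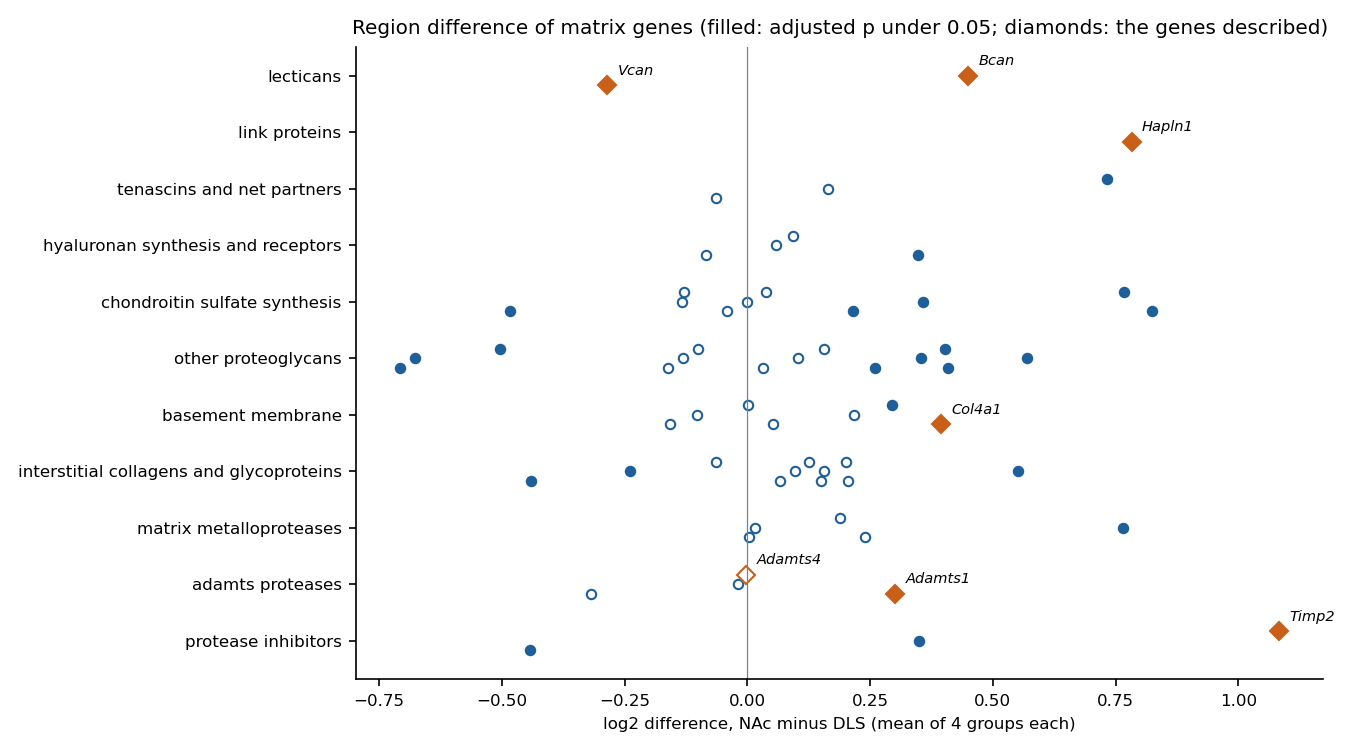
Log2 difference between NAc and DLS (x axis) of every matrix gene that could be read in all 24 libraries, by list (y axis), averaged over the 4 groups of each region; filled symbols passed an adjusted p of 0.05, and diamonds are the 7 genes named. Timp2 (1.08) and Hapln1 (0.78) stand at the high end of the NAc side, and Vcan (-0.29) and Sdc4 (-0.71) on the DLS side.

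No other matrix gene passed in any exposure comparison. The smallest p in NAc belonged to Col15a1, a basement membrane zone collagen, which was 0.60, 0.64 and 0.72 above controls under stress, LPS and both (each ± 0.14, limma adjusted p = 1, 0.935 and 0.962); the 3 share the controls. In DLS it belonged under stress to Sdc4, 0.82 ± 0.19 above controls (adjusted p = 0.294). B3gat3, which builds the linker that joins chains to core proteins, was 0.60 ± 0.17 above controls and agrin (Agrn) gave -0.52 ± 0.16 in the same comparison (adjusted p = 0.294 for each). Under LPS alone Col11a1, a fibrillar collagen, gave -0.55 ± 0.19 and Mmp11 -0.58 ± 0.23 (adjusted p = 0.967 for each).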

How the data were processed

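RNA was sequenced from bulk DLS and NAc, with 24 libraries in 8 groups of 3. Per the labels' protocols, poly(A) RNA was made into strand-specific libraries with the NEBNext Ultra Directional kit. Per the submitters' processing notes STAR 2.6.25.17 and Cuffdiff 2.2.1 were used; their settings, annotation and build were not given in the sources used here. The authors deposited 1 table headed as FPKM whose values lack a decimal separator, so they were treated as a score: of 415272 values, 97026 are listed as 1 and 12 are blank. Depth and absolute level are unknown, and no interval on counts was made.

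Each gene's digits, as log10, were put on a circle of 1 decade and read as log2 differences where its libraries lay within 0.5 decades, leaving out genes listed as 1 or blank. This gave 9275 genes in DLS (of 12091), 10616 in NAc (of 12496) and 7667 over both (of 12001). Group means were compared by limma 3.58.1 under R 4.3.3 (eBayes without a trend), per region or over all libraries, with Benjamini-Hochberg adjustment over all genes tested and a threshold of 0.05. The ribosomal index is the mean of 56 genes in DLS and 69 in NAc. The procedure was also run on simulated digits, and the outcome of that run is not given here. Alternatives were other arcs, rescaling, array weights and leaving out each library, and, added later, the ribosomal index as covariate and leaving out the 2 NAc libraries with an index over 0.4. Named were all 10 genes, the 3 other matrix genes with the smallest p per comparison and the 3 genes most like each member; only some of the last 2 sets are printed. The members and lists were chosen with earlier results of these data known. Replicates were numbered in accession order, which pairs no samples.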

Additional observations from a re-analysis of the deposited data

How the results depend on the processing

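The 6 regional differences kept their direction and their call under rescaling, array weights, each arc that admits the gene and the loss of any 1 library. They also kept their call with the ribosomal covariate. That index has a mean of 0 in each region, so it could change the standard errors of these differences but not their size or direction. No exposure difference of the 7 genes passed in any of these fits other than with array weights. Of 2544 alternative values for single genes 160 changed sign, none of them called; those below moved by at least their standard error. Array weights converged in DLS only. They called 1186 genes for stress alone in DLS, 2469 for LPS alone, 2507 for both and 217 for the stress main effect, 634 for LPS alone in NAc, 2681 for the regional difference in controls, and 570, 5 and 897 for the differences between regions in stress, LPS and interaction. They also turned Vcan in DLS to -0.14 for LPS alone and -0.14 for its main effect, Adamts4 to 0.040 for stress in DLS, Adamts1 to 0.058 for stress alone in NAc, and the difference between regions in Timp2 under stress to 0.031 and in Vcan for the interaction to -0.20; Vcan passed between regions in controls (-0.44, adjusted p = 0.00801). The cause was not tested.

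With the ribosomal index as covariate 3215 genes differed between regions in controls. Hapln1 turned to 0.24, 0.13 and 0.15 in DLS under stress, LPS and both, to 0.13 for the DLS stress main effect and to -0.029 for both in NAc, and Bcan to 0.30, 0.16 and 0.31 for LPS, both and the stress main effect in DLS. The difference between regions under stress turned to -0.23 for Bcan and -0.20 for Hapln1. The narrow arc of 0.3 decades tested 4111 genes and called 2364 between regions and 206 in controls, fewer genes being tested; the wide arc of 0.7 called 1 gene for LPS alone in NAc. Rescaling moved the median of 3 protease inhibitors to 0.42.

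Leaving out 1 library gave 0 to 1 genes for stress alone in NAc (1 without control replicate 3) and 190 to 844 for the regional difference in controls, 190 without DLS control replicate 2, 322 without DLS control 3, and 412, 198 and 413 without NAc controls 1, 2 and 3. The Bcan difference in controls ran from -0.032 to 0.49. In DLS under stress alone Adamts1 ran from -0.52 to 0.055 and Adamts4 from -0.45 to 0.069, each positive without saline stressed replicate 1. No paired analysis was possible because the labels give no replicate numbers and do not tie libraries to rats or litters. Depth is unknown, and differences over 3.162-fold cannot be read.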
